A study of Rattus norvegicus with 18 samples.

Results

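The 10 genes examined here encode glycolytic enzymes, namely the hexokinases Hk1 and Hk2, the phosphofructokinases Pfkl and Pfkp, the aldolase Aldoa, the phosphoglycerate kinase Pgk1, the enolases Eno1, Eno2 and Eno3, and the lactate dehydrogenase Ldha. They were chosen by the measured difference between distal and proximal colon, Eno3 having one of the largest, and all probe sets annotated with exactly 1 of these symbols were taken. That gave 16 probe sets for 10 of the 14217 genes with a probe set of their own, out of 31099 probe sets. Gene expression had been measured on Affymetrix rat arrays in scraped mucosa of distal colon (9 arrays) and of proximal colon (9 arrays) from the same 9 male Sprague Dawley rats, which carry the numbers 1 to 8 and 10. Every animal was fed modified AIN-93G for 10 days, was then injected subcutaneously with azoxymethane (15 mg/kg), an alkylating colon carcinogen, and was killed after 6 h. Both regions carry that treatment, no untreated rats are among these samples, and the labels name 2 allocation groups without saying which rat was in which.

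Glycolysis turns glucose into pyruvate in the cytosol, and lactate dehydrogenase turns pyruvate into lactate. Most of its steps are served by several isozymes encoded by separate genes, which differ in the tissues that use them and in how they are regulated. Colonocytes take much of their energy from butyrate made by gut bacteria, and they also use glucose. Of the enolases, which form phosphoenolpyruvate, Eno1 encodes the alpha subunit of most tissues, Eno2 the gamma subunit known from neurons and neuroendocrine cells, and Eno3 the beta subunit known from striated muscle.

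The isozyme genes did not run together along the colon. Eno3 was 13.3-fold higher in distal colon and Hk1 was 2.50-fold higher there, while Hk2 was 1.50-fold, Pfkl 1.30-fold and Pgk1 1.20-fold higher in proximal colon. Eno1, Aldoa, Pfkp and Ldha had mean log2 differences of -0.11, 0.03, 0.11 and -0.12 between the regions. Among glycolytic genes outside the set, Hkdc1 and Pklr were lower in distal colon. Since the members were chosen with this contrast known, their differences are a description and carry no test.

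Upstream sequences of 3 members are shown, those of Eno3 and Hk1 because no distal array fell to the level of any proximal one, and that of Ldha because it held the most matches to the motif searched. Each is the 250 bases before an annotated start, 5′ to 3′ on the gene's strand, from RefSeq (GRCr8). Capitals mark the core letters bound by hypoxia-inducible factors, ACGTG or GCGTG, read on either strand, so that CACGT and CACGC count as well. The Eno3 window lies at chr10:55868936-55869185 on the plus strand. Hk1 has windows at chr20:30874815-30875064 and chr20:30842073-30842322 on the minus strand, for an outer and an inner start. The Ldha window lies at chr1:106507842-106508091 on the plus strand.
Eno3: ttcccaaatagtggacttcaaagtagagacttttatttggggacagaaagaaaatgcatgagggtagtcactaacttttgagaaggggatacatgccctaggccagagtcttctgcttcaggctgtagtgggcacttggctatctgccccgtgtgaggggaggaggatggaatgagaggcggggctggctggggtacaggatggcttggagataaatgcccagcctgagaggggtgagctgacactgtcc
Hk1 outer start: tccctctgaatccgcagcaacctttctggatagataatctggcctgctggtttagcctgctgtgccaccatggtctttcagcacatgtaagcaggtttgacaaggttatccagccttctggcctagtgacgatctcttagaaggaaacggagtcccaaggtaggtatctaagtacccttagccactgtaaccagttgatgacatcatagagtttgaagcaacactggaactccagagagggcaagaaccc
Hk1 inner start: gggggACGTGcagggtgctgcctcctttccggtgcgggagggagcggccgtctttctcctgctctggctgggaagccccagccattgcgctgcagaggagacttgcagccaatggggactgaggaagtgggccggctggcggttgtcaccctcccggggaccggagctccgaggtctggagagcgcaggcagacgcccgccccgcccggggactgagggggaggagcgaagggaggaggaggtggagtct
Ldha: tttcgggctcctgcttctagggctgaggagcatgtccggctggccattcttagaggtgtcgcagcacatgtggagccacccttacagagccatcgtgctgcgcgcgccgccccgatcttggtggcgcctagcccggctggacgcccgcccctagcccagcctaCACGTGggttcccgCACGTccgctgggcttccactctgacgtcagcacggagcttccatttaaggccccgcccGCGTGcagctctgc
The Eno3 window and the outer Hk1 window held 0 matches, and the inner Hk1 window held 1, at 245 bases before the start. The Ldha window held 4, of which those at 87 and 86 bases before the start overlap, besides ones at 73 and 14 bases. Of the 13 windows listed for 9 of the members, 8 held a match, against 12284 of 33469 windows of that length over all genes (36.7%). The Ldha window is 66.4% G and C, the Eno3 window 52.4%, and the outer and inner Hk1 windows 48.8% and 70.0%. A match describes letters in a window, and a window without one says nothing about binding.

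The deposited signals were MAS5 intensities whose trimmed mean ran from 210.3 to 341.2 over the arrays, and they were made comparable by quantile normalization. Levels below are log2(signal + 16) after that step, and the pseudocount of 16 shrinks the difference of a gene with low signal. Of 11407 genes tested, 30.8% passed limma at an adjusted p under 0.05, 16.2% with a higher level in distal colon and 14.5% in proximal colon. Of the genes that passed, 52.8% were higher in distal colon, and 22.5% with the deposited scaling kept, which put the median difference of all genes at -0.10 in place of 0.01. Epithelial markers such as Epcam and Krt8 were high on every array, and the summed signal of 10 such markers was 78061 to 83960 in distal and 73986 to 88023 in proximal colon. The proximal array of rat 3 stood apart, with a summed signal of 10 smooth muscle markers of 58056, against 2852 to 6159 in the other proximal arrays. In distal colon that sum was 12358 in rat 3 and 12233 in rat 7, and 2507 to 3879 in the others. Mucosal scrapings mix cell types, and a smaller share of a cell type cannot be told apart from less RNA per cell.

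Among the hexokinases, which trap glucose in the cell as glucose 6-phosphate, Hk1 encodes the isozyme of most tissues and Hk2 the one known from muscle and from growing cells. Hk1 had a lowest, median and highest log2 signal of 10.60, 10.74 and 10.90 in distal colon, against 8.49, 9.41 and 9.91 in proximal colon. The regions did not overlap, and the distal array was higher in 9 of 9 rats, by 0.69 in rat 10 to 2.25 in rat 6. The mean difference was 1.32 ± 0.15 on the log2 scale (SE, n = 9 each). A further 3 probe sets for Hk1 are quality controls that read its 5′ part, its middle and its 3′ part. With the deposited scaling they were higher in distal colon in 9, 8 and 9 of 9 rats, by means of 0.95, 1.36 and 1.20. The ratio of 3′ to 5′ signal of Hk1, a measure of RNA integrity, was 3.61 to 5.49 in distal and 3.61 to 6.94 in proximal colon. Its 5′ signal was low, at 38.4 to 118.3 in distal and 22.5 to 40.9 in proximal colon. For the GAPDH controls the ratio was 1.21 to 1.67 in distal and 1.19 to 1.39 in proximal colon. For those of beta-actin it was 1.73 to 3.52 and 1.80 to 2.40. The fifth Hk1 probe set was too dim to be tested, with a mean log2 signal of 5.21 in distal and 4.69 in proximal colon. Red blood cells also use Hk1. The summed signal of 7 markers of red and white blood cells was 1969 to 8184 in distal and 1238 to 4686 in proximal colon, and Hbb and Alas2, of the red cell lineage, passed as higher in distal colon. The part of blood in the Hk1 difference was not tested.

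Hk2 ran the other way. Its log2 signals were 7.70, 8.16 and 8.53 in distal colon (lowest, median and highest) and 8.48, 8.64 and 8.96 in proximal colon. The ranges overlapped slightly, and the proximal array was higher in 9 of 9 rats. The mean difference was -0.59 ± 0.11 (SE, n = 9 each).

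Phosphofructokinase commits sugar to glycolysis, and Pfkl and Pfkp encode its liver and platelet subunits. Pfkl was lower in the distal array of 9 of 9 rats, with log2 signals of 9.23, 9.41 and 9.90 in distal and 9.55, 9.94 and 10.07 in proximal colon. The ranges overlapped, and the smallest difference within a rat, -0.06, was that of rat 6, which had the highest distal value. The mean difference was -0.38 ± 0.09 (SE, n = 9 each). Pfkp had log2 signals of 11.11, 11.20 and 11.49 in distal and 10.91, 11.09 and 11.37 in proximal colon. Its regions overlapped over most of their range, with a mean difference of 0.11 ± 0.06 that became -0.0062 with the deposited scaling.

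**Figure D1:**
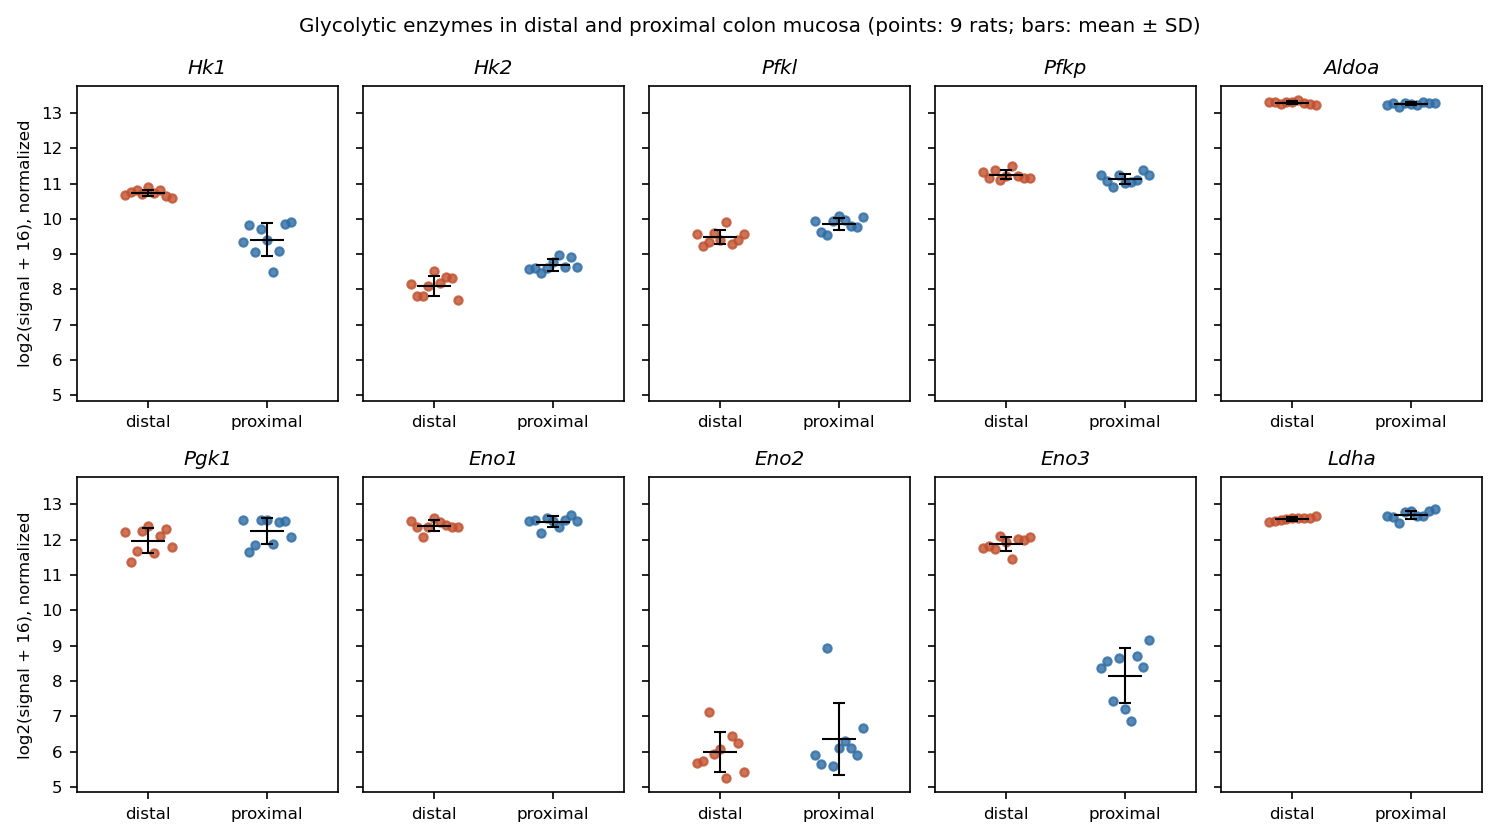
Each panel plots 1 member, with log2(signal + 16) after quantile normalization on the vertical axis and the region on the horizontal axis; points are the 9 rats and bars the mean with SD. Eno3 and Hk1 lie apart between the regions (11.46 to 12.11 against 6.86 to 9.15, and 10.60 to 10.90 against 8.49 to 9.91, distal against proximal), and Eno2 has a lone high point in proximal colon at 8.92.

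Aldoa, which splits fructose 1,6-bisphosphate, had the steadiest signal of the set, at 13.22, 13.30 and 13.36 in distal and 13.16, 13.28 and 13.30 in proximal colon. Its SD between rats was 0.041 in distal and 0.044 in proximal colon, where the median SD of the genes tested was 0.21 and 0.22. Its level lay at the 99.8th percentile of the genes tested, and that median is not one of equally bright genes. In the deposited signal Aldoa was 7574 to 10947 in distal and 9096 to 11948 in proximal colon. The mean difference of 0.03 became -0.11 with the deposited scaling. Ldha, the subunit that favours lactate, had log2 signals of 12.51, 12.61 and 12.66 in distal and 12.46, 12.68 and 12.87 in proximal colon. The proximal array was higher in 8 of 9 rats, all but rat 3, and the mean difference was -0.12 ± 0.04 (SE, n = 9 each).

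Pgk1 makes the first ATP of the pathway's second stage, and its probe sets behaved differently between rats. The first of the probe sets, which stands for the gene in all counts, gave log2 signals of 11.38, 12.11 and 12.40 in distal and 11.66, 12.49 and 12.57 in proximal colon. In rats 2, 3, 6 and 10 it read 11.38, 11.67, 11.63 and 11.79 in distal and 11.66, 11.84, 11.88 and 12.09 in proximal colon. In rats 1, 4, 5, 7 and 8 it read 12.23, 12.26, 12.40, 12.11 and 12.30 in distal and 12.56, 12.57, 12.56, 12.49 and 12.53 in proximal colon. The same 4 rats were thus the lowest in both regions, with a gap to the other 5 rats, and the distal array was lower than the proximal one in 9 of 9 rats, by 0.16 to 0.38. The mean difference of -0.27 ± 0.16 (SE, n = 9 each) carries this spread between rats. With the second probe set those 4 rats were not set apart. It gave 10.86, 10.79, 10.91 and 11.19 in their distal arrays and 10.81 to 11.12 in those of the other 5 rats. In proximal colon it gave 11.00, 11.13, 11.31 and 11.45 for the 4 rats and 11.21 to 11.44 for the other 5. Its mean difference was -0.32 ± 0.06, with the distal array lower in 9 of 9 rats. The third probe set was too dim to be tested, with log2 signals of 4.03 to 4.73 in distal and 4.08 to 4.98 in proximal colon.

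**Figure D2:**
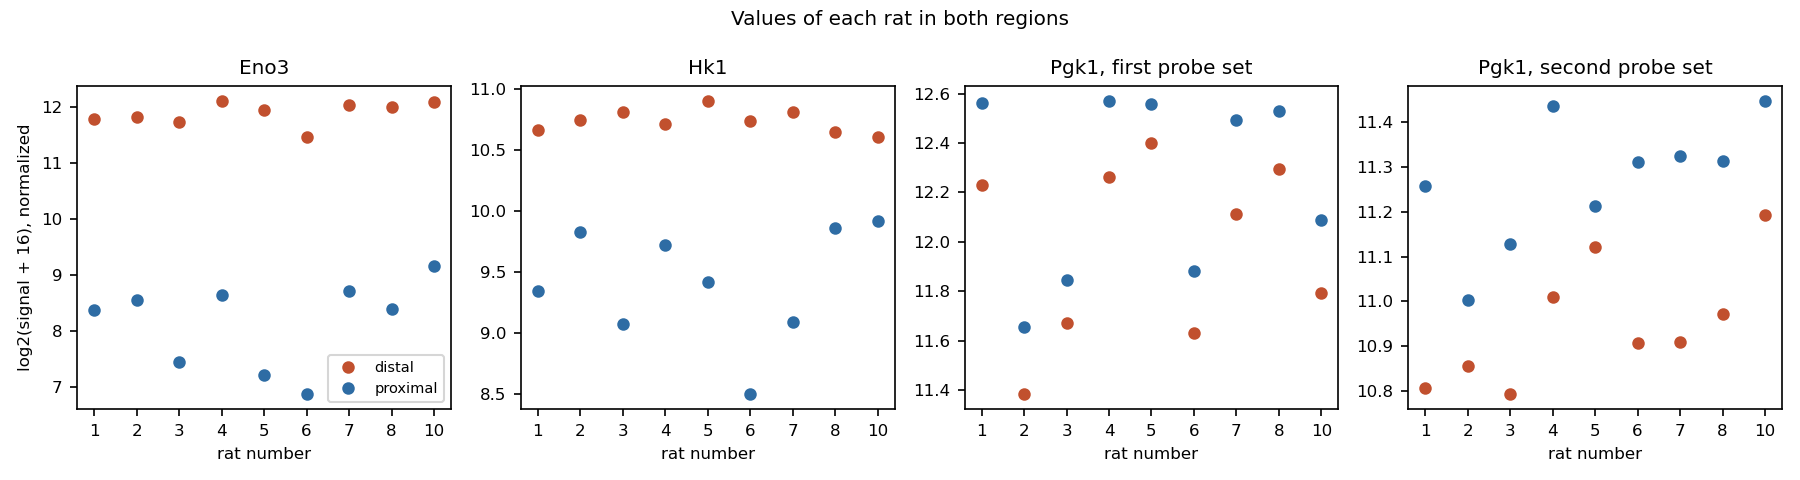
The panels plot log2(signal + 16) after normalization (vertical axis, a scale of its own in each panel) against rat number for Eno3, Hk1 and 2 probe sets of Pgk1, with distal and proximal arrays in different colours. In the panel of the first Pgk1 probe set, rats 2, 3, 6 and 10 are low in both regions; in that of Eno3, the proximal arrays of rats 3, 5 and 6 lie at 7.44, 7.22 and 6.86.

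Eno3 had log2 signals of 11.46, 11.94 and 12.11 in distal colon (lowest, median and highest), against 6.86, 8.39 and 9.15 in proximal colon. The regions lay far apart, and the difference within a rat ran from 2.93 in rat 10 to 4.72 in rat 5. The mean difference was 3.74 ± 0.24 (SE, n = 9 each), the 16th largest in size of 11407 genes. It was 3.47 with the proximal arrays of rats 3 and 6 left out, and 3.60 with the deposited scaling. Proximal arrays differed far more among themselves than distal ones, with an SD of 0.78 against 0.21 in distal colon. The median SD of the genes tested was 0.22 in proximal colon. In the deposited signal Eno3 was 2462 to 4529 in distal and 116.4 to 528.4 in proximal colon.

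Because Eno3 is known from striated muscle, skeletal muscle markers were read on the same arrays. Of 14 such markers, Ckm, Myh2, Myh4, Tnnc2, Myl1, Pvalb, Mb and Casq1 were below the filter on dim probe sets. Acta1 was lower in distal colon, at 7.44 to 8.68, against 8.80 to 9.80 in proximal colon. Probe sets annotated as Myh1 were bright on every array, at 11.02 to 11.95 for the brightest. The summed signal of the 14 markers was 2928 to 4535 in distal and 4363 to 5092 in proximal colon. Myh1 alone made up 70.7% to 83.4% of that sum in distal and 62.6% to 78.3% in proximal colon. Without it the sum was 727.7 to 965.6 in distal and 982.3 to 1729 in proximal colon. The part of muscle in the Eno3 values was not tested.

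Eno1 had log2 signals of 12.08, 12.37 and 12.61 in distal and 12.19, 12.54 and 12.70 in proximal colon, so that the regions overlapped almost fully. The mean difference was -0.11 ± 0.07 (SE, n = 9 each), with the proximal array higher in 7 of 9 rats. Eno2 was dim, at 5.25, 5.92 and 7.13 in distal and 5.59, 6.09 and 8.92 in proximal colon. Both highest values came from rat 3, at 7.13 in distal and 8.92 in proximal colon. The proximal array of rat 3 also had a summed signal of 11 markers of enteric neurons and glia of 3425, against 514.0 to 758.0 in the other proximal arrays, beside its high smooth muscle sum. In distal colon the neural sum was 1071 in rat 3 and 451.1 to 738.2 in the others. The summed signal of 8 enteroendocrine markers was 1042 to 2162 in distal and 3255 to 7105 in proximal colon, at 4403 in the proximal array of rat 3. The part of neural, muscle and enteroendocrine cells in the Eno2 values was not tested. The mean Eno2 difference was -0.37 ± 0.36 (SE, n = 9 each), about the size of its error. It was -0.0066 once the proximal arrays of rats 3 and 6 were left out, with the high distal array of rat 3 kept. With both arrays of rat 3 left out it was -0.19.

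Counted by the fit over all genes, 2 of the 10 members, Eno3 and Hk1, passed as higher in distal colon, beside 16.2% of all genes tested, and 2, Hk2 and Pfkl, as higher in proximal colon, beside 14.5%. With rat as a block, which compares the regions within each animal, 4 passed as higher in proximal colon, Pgk1 and Ldha with them, beside 17.4% of all genes in that fit. The 2 members whose distal arrays all lay above the proximal ones stand beside 3.22% of all genes (6.89% did not overlap in either direction), and 0 members lay wholly below, beside 3.67%. The median difference of the members was -0.12, against 0.01 over all genes tested. These counts repeat the contrast that chose the members and support nothing further.

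The genes most like Eno3 were looked up next. Over all 18 arrays, which mainly share the split by region, the highest Pearson correlations belonged to Pnp, a purine nucleoside phosphorylase (0.982), Chst5, a sulfotransferase (0.977), Golm1, a Golgi membrane protein (0.977), Fads3, of the fatty acid desaturase family (0.976), and Alpk3, an alpha-kinase known from heart muscle (0.974). Hk1 followed Eno3 with 0.947 on the same measure, while Hk2 and Pfkl ran against it with -0.803 and -0.709. When the region means were removed, so that only deviations between rats counted, Slc34a2, a sodium phosphate cotransporter, was the closest at 0.936 over 18 arrays. B3gnt7, a glycosyltransferase (0.928), Fxyd4, a regulator of the sodium pump (0.915), Sftpd, a surfactant lectin (0.908), and Hoxb13, the most posterior gene of its Hox cluster (0.906), came after it. All 5 of these were higher in distal colon, by 6.66-fold for Slc34a2 to 17.9-fold for Fxyd4. They shared with Eno3 low proximal values in rats 3, 5 and 6. Slc34a2 read 5.10, 4.62 and 4.26 in these proximal arrays, against 6.36 to 7.29 in the other proximal arrays. Hk1 had a correlation of 0.683 with Eno3 on this measure, and the other members lay between -0.27 and 0.42.

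**Figure D3:**
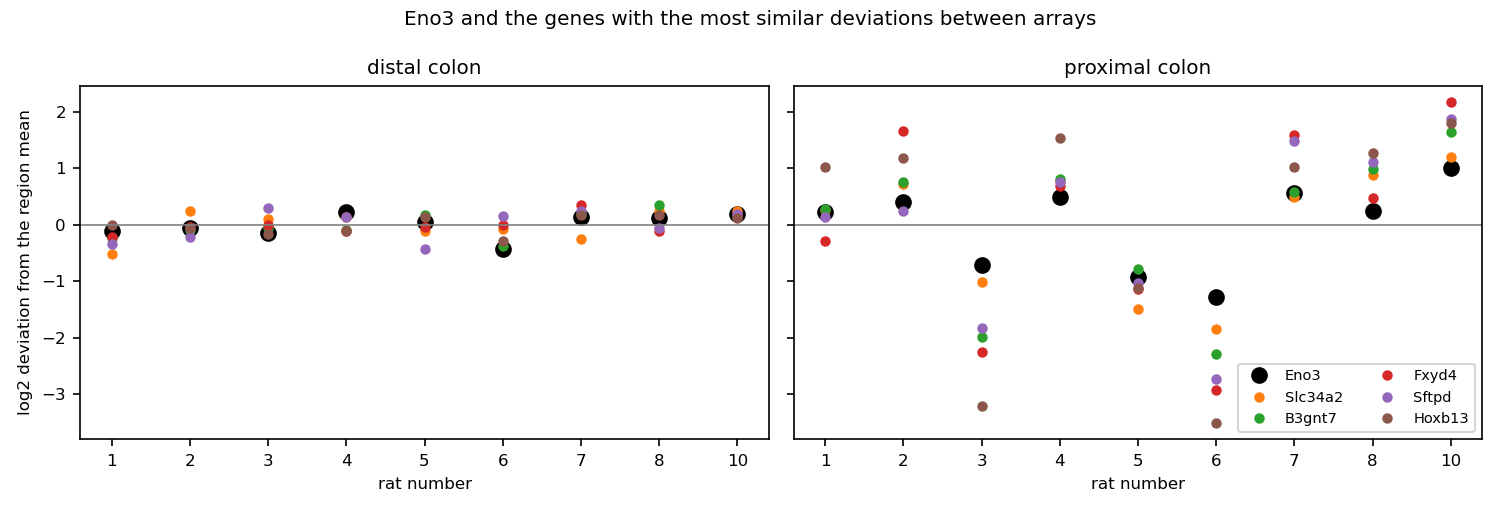
The vertical axis gives the log2 deviation of each array from the mean of its region and the horizontal axis the rat number, with a panel for each region; large black points are Eno3 and the small ones the 5 genes with the most similar deviations. In proximal colon all 6 genes are below their mean in rats 3, 5 and 6, and in distal colon the deviations are small beside those in proximal colon.

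Whether a rat kept its rank between the regions was tested for the 10 members over 9 rats, which does not use the difference between the regions. For Eno3 the distal and the proximal level of a rat correlated with Pearson's r = 0.75 (exact permutation p = 0.0187, adjusted over 10 relations p = 0.0936) and Spearman's rho = 0.82 (exact permutation p = 0.0108, adjusted p = 0.0374). Without rats 5 and 6, the 2 farthest from the proximal median, r was 0.74. It was 0.34 without rats 3 and 6 and 0.36 with the deposited scaling, so the relation rests on few rats and on the scaling. For Ldha rho was 0.81 (exact permutation p = 0.0112, adjusted p = 0.0374) and r was 0.64 (exact permutation p = 0.0628, adjusted p = 0.192), or 0.53 without rats 3 and 10. With the deposited scaling r was 0.27 and rho 0.18 for Ldha, and with arrays centred on their medians r was 0.41 and rho -0.35, so this relation depends on the scaling as well. No correlation is given for Pgk1, the relation with the smallest p, because its rats fell into separate sets of 4 and 5, too few to be tested apart. The other 7 members did not pass by either measure.

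Relations of Eno3 with the other members within a region made a second family of 18. In distal colon Pfkp ran against Eno3, with r = -0.91 (exact permutation p = 0.00113, adjusted p = 0.0203) and rho = -0.78 (exact permutation p = 0.0172, adjusted p = 0.310, n = 9), and r was -0.68 without rats 3 and 6. With the deposited scaling r was 0.37, so its direction depends on the scaling. In proximal colon none of the 9 relations passed. Hk1 came closest, with r = 0.73 (exact permutation p = 0.0269, adjusted p = 0.232) and rho = 0.62 (exact permutation p = 0.0857, adjusted p = 0.514, n = 9), and r was 0.58 without rats 5 and 6 and 0.32 without rats 3 and 6.

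Glycolytic enzymes outside the set were read from the fit over all genes. Of 11 tested, 1 passed with the distal and 5 with the proximal level higher, with a median difference of -0.20, against 0.01 over all genes tested. That makes 54.5% of this list, beside 30.8% of all genes tested. This list and those below were also chosen with earlier results of these data known, so their shares are a description and support nothing further. The genes named from these lists include those with the largest differences among the genes that passed. Their adjusted p-values are likewise a description and not independent tests. Hkdc1, a hexokinase family member, was higher in proximal colon, with log2 signals of 4.28, 5.24 and 5.89 in distal and 5.82, 7.09 and 7.94 in proximal colon (limma adjusted p = 3.18e-05). Its distal signal was near the floor, so the fold depends on the pseudocount, being 6.68 with a pseudocount of 1, 3.64 with 16 and 2.09 with 64. Pklr, the pyruvate kinase of liver and red cells, was 2.31-fold higher in proximal colon, at 7.97, 8.11 and 8.68 in distal and 8.80, 9.49 and 9.88 in proximal colon (adjusted p = 5.48e-07). Its regions did not overlap, and both its probe sets passed. Galm, which interconverts the ring forms of aldoses, was 1.68-fold higher in proximal colon (adjusted p = 0.000193). Gpi, which follows hexokinase in the pathway, averaged 12.13 ± 0.11 in distal and 12.33 ± 0.10 in proximal colon (SD, n = 9 each; limma adjusted p = 0.00522), and was lower in the distal array of 9 of 9 rats. Gapdhs, known from sperm, was 1.23-fold higher in proximal colon (adjusted p = 0.0467). Adpgk, which uses ADP to phosphorylate glucose, was 1.45-fold higher in distal colon (adjusted p = 0.000419), although its other probe set did not pass. Tpi1 (-0.09 ± 0.05, SE), Pgam1 (-0.07 ± 0.04) and Pfkm (-0.07 ± 0.18) did not pass, nor did Ldhb (-0.40 ± 0.36), the subunit that favours pyruvate. With arrays centred on their medians Gpi had an adjusted p of 0.123 (0.000465 to 0.123 over all alternatives), and Gapdhs reached up to 0.155 over its alternatives. Differences of Gapdh and Pkm between the regions were not analysed here, as their probe sets carry several symbols or are controls.

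**Figure D4:**
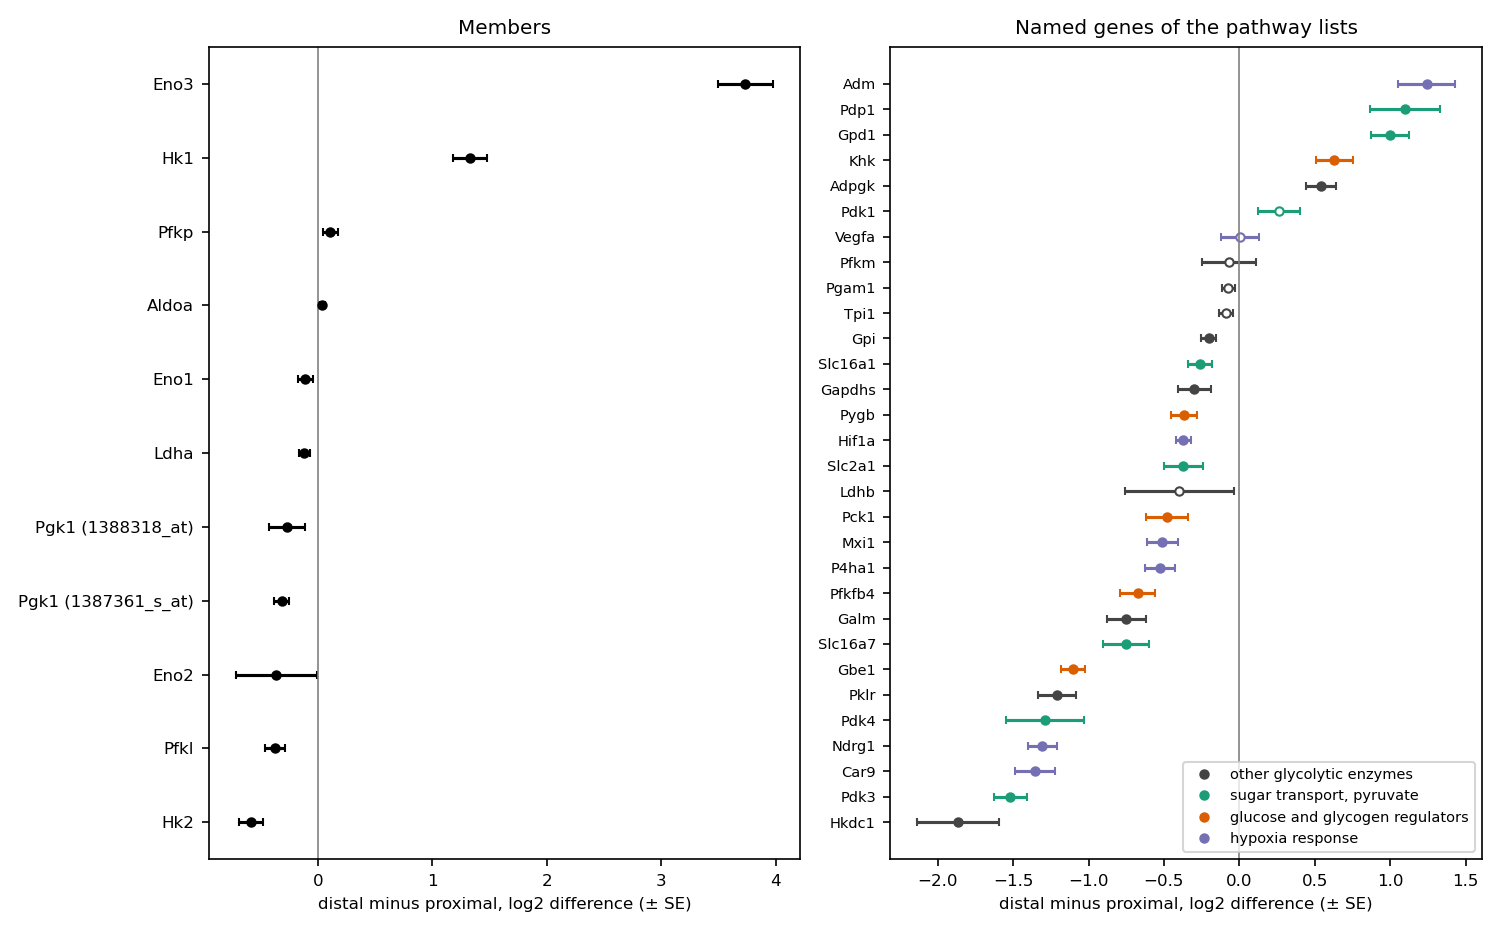
Both panels plot the distal minus proximal log2 difference on the horizontal axis with its SE from limma. The members are at left and the named genes of the 4 pathway lists at right, coloured by list. Genes added after their values were seen are not drawn. Filled points at right passed an adjusted p of 0.05 and open points did not. Eno3 at 3.74 and Hk1 at 1.32 lead the members, and Hkdc1 at -1.87 lies at the other end among the pathway genes.

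Sugar entry, lactate export and the fate of pyruvate were covered by 27 tested genes, of which 4 passed with the distal and 8 with the proximal level higher (median difference -0.09), in all 44.4% of the list beside 30.8% of all genes tested. Pdk3 and Pdk4, kinases that restrain pyruvate dehydrogenase, had proximal levels 2.86-fold and 2.44-fold above the distal ones (limma adjusted p = 4.71e-09 and 0.000962). Pdp1, the phosphatase that works against them, was 2.14-fold higher in distal colon (adjusted p = 0.00162), with log2 signals of 9.58, 10.12 and 10.24 in distal and 7.60, 9.32 and 9.58 in proximal colon. Subunits of the pyruvate dehydrogenase complex were named after their values were seen. Pdhb was 1.38-fold higher in proximal colon (limma adjusted p = 1.52e-07) and Dld 1.17-fold (adjusted p = 0.0350, up to 0.283 over its alternatives). Pdha1 and Pdhx did not pass. Gpd1, which makes glycerol 3-phosphate from a glycolytic intermediate, was 2.00-fold higher in distal colon (adjusted p = 5.69e-06). Slc16a7, a monocarboxylate transporter, was 1.68-fold higher in proximal colon (adjusted p = 0.000974). Slc2a1, the glucose transporter of many cell types, was 1.29-fold higher in proximal colon (adjusted p = 0.0419), and Slc16a1, which carries lactate and butyrate, 1.20-fold (adjusted p = 0.0183). Slc5a1, another glucose transporter, ran the other way and was 1.58-fold higher in distal colon (limma adjusted p = 0.00301). Its adjusted p was at most 0.0155 over the alternatives, and it was named after its values were seen. Pdk1 did not pass (0.26 ± 0.14, SE). Slc2a1 was lost with arrays centred on their medians, without the filter on dim probe sets and without the intensity trend (limma adjusted p up to 0.125). It was also lost without rat 2, 4, 5, 6, 7, 8 or 10, each left out alone. Slc16a1 was lost with arrays centred on their medians (adjusted p = 0.159) and without rat 2, 8 or 10. The count of 8 was 5 without rat 10.

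Regulators of glycolysis, glucose synthesis and glycogen numbered 19, with 1 higher in distal and 8 in proximal colon (median difference -0.20), in all 47.4% of the list beside 30.8% of all genes tested. Gbe1, the glycogen branching enzyme, was 2.15-fold higher in proximal colon, averaging 9.05 ± 0.19 in distal and 10.16 ± 0.15 in proximal colon (SD, n = 9 each; limma adjusted p = 5.86e-09). Pfkfb4, which sets the level of an activator of phosphofructokinase, was 1.60-fold higher in proximal colon (adjusted p = 0.000236), Pck1, of glucose synthesis, 1.39-fold (adjusted p = 0.0149), and Pygb, a glycogen phosphorylase, 1.29-fold (adjusted p = 0.00315). Khk, which phosphorylates fructose, was the 1 gene higher in distal colon (1.55-fold, adjusted p = 0.000781). Pfkfb4 passed by 1 of its 2 probe sets. Pck1 had an adjusted p of 0.0523 with arrays centred on their medians, the highest of its alternatives, the lowest being 0.00177.

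Several glycolytic genes are textbook targets of hypoxia-inducible factors, so genes of that response were read as well. Of 22 tested, 2 passed with the distal and 9 with the proximal level higher (median difference -0.18), in all 50% of the list beside 30.8% of all genes tested. Car9, a carbonic anhydrase often used as a hypoxia marker, was 2.56-fold higher in proximal colon, with log2 signals of 8.25, 9.05 and 9.29 in distal and 10.06, 10.27 and 10.64 in proximal colon (limma adjusted p = 2.87e-07). Ndrg1 was 2.47-fold higher in proximal colon (adjusted p = 6.53e-09), and P4ha1, a collagen prolyl hydroxylase subunit, 1.44-fold (adjusted p = 0.000550). Hif1a, the factor itself, averaged 10.84 ± 0.12 in distal and 11.21 ± 0.08 in proximal colon (SD, n = 9 each; adjusted p = 1.73e-05), and the proximal array was higher in 9 of 9 rats. Adm, the precursor of adrenomedullin, ran the other way and was 2.37-fold higher in distal colon (adjusted p = 5.89e-05). Epas1, which encodes the related factor HIF-2 alpha, was the other gene higher in distal colon, named after its values were seen. It passed by 1 of its 2 probe sets (adjusted p = 0.000365) and not with their mean (adjusted p = 0.126, the highest of its alternatives, the lowest being 0.000266). Vegfa did not pass (0.0028 ± 0.13, SE; adjusted p = 0.990). Mxi1 was 1.42-fold higher in proximal colon (adjusted p = 0.00106) by its brighter probe set, and not with the mean of its probe sets (adjusted p = 0.261, the highest of its alternatives, the lowest being 0.000233). Enteroendocrine markers also ran with the proximal side, since 7 of 8 were higher there and their summed signal was 1042 to 2162 in distal and 3255 to 7105 in proximal colon. Their part in these lists was not tested.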

How the data were processed

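Gene expression was measured in 9 distal and 9 proximal colon samples, 1 array each, grouped by the sample titles. The deposited values are linear MAS5 intensities, 1 per probe set (MAS5 is named in the submitters' processing notes). Neither the version nor a scaling target is given in the sources used here. From them log2(intensity + 16) was computed for 31042 probe sets that are not controls, followed by quantile normalization. The dimmest 30% of probe sets (mean log2 signal below 5.54) were left out, which kept 21729 probe sets and 11 of the 13 member probe sets that are not controls. Symbols came from the array annotation: 20826 probe sets had 1 symbol, 436 several and 9780 none. A gene is its tested probe set with the highest mean.

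Distal minus proximal colon was fitted with limma 3.58.1 (R 4.3.3; lmFit, eBayes with intensity trend, two-sided, no block), with Benjamini-Hochberg adjustment over all tested probe sets. The fit was tested on simulated data. Correlations over rats used exact permutation of 362880 pairings, two-sided, adjusted within each family. Marker sums add normalized linear signals (pseudocount included), 1 probe set a marker, the brightest. Python 3.11.15, numpy 2.4.6, pandas 2.3.3, scipy 1.17.1 and matplotlib 3.10.9 were used.

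The members and gene lists were chosen with earlier results of these data known. The text names all members, up to 5 genes with the largest differences of each pathway list among those that passed, a fixed set of glycolytic and hypoxia genes, and the 5 genes most like Eno3 by 2 measures. Epas1, Slc5a1, Pdhb, Dld, Pdha1 and Pdhx were added after their values were seen. Rat numbers pair the arrays, since the labels give each rat a distal and a proximal array. Deviations of the 2 arrays of a rat correlated with r of -0.07 to 0.60 (above 0.1 in 6 of 9 rats). The median was 0.24, against -0.02 between arrays of different rats. Of the 9 proximal arrays, 4 correlated best with the distal array of their own rat. The number of arrays limits the precision, no detection calls were used, and the labels name no batch. Alternatives were the scaling, pseudocount, filter, probe set rule, rat as a block, the trend, and leaving out arrays. Columns of no sample numbered 0.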

Additional observations from a re-analysis of the deposited data

Results flagged for a closer look

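Of 26 groups of 9 member values (13 probe sets in each region), 2 held an array far from the other 8 by Dixon's ratio of the gap to the range, where chance gives about 1 in 20. Eno2 in the proximal array of rat 3 had a log2 signal of 8.92, against 5.59 to 6.68 in the other proximal arrays. Eno1 in the distal array of rat 3 had a log2 signal of 12.08, against 12.36 to 12.61 in the other distal arrays. Both arrays also held a high summed signal of smooth muscle markers, 12358 in the distal and 58056 in the proximal array of rat 3. The distal array of rat 7 had a similar sum, 12233, with an Eno1 log2 signal of 12.43, within the range of the other distal arrays. The part of muscle in these values was not tested.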

How the results depend on the processing

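The Eno3 difference kept its direction and ran from 3.47 to 3.84 over the alternatives (3.61 to 3.84 when 1 rat was left out), and that of Hk1 from 1.15 to 1.41. With the deposited scaling the Ldha and Aldoa differences became -0.26 and -0.11, and genes passing as higher in distal colon numbered 451 in place of 1853. Leaving out 1 rat gave 1586 to 1891 genes higher in distal and 1426 to 1775 higher in proximal colon. Members higher in proximal colon numbered 4 in place of 2 with rat as a replicate block, with the mean of a gene's probe sets, and when the proximal arrays of rats 3 and 6 were left out, and 2 to 3 when 1 rat was left out; the block moved no other count of calls by over 1.5 times. With arrays centred on their medians, genes higher in proximal colon numbered 3 in place of 5 among the other glycolytic enzymes, 5 in place of 8 for sugar transport and pyruvate, and 4 in place of 8 among the regulators. Over all genes tested that number fell as well, to 1226 in place of 1657. With the mean of probe sets, 1 hypoxia gene in place of 2 was higher in distal colon, Epas1 being lost. Without rat 10 the sugar transport and pyruvate genes higher in proximal colon numbered 5 (5 to 8 over the rats left out). By Pearson's r, 0 relations passed in either family with the deposited scaling, in place of 1 in each (between the regions, that of Pgk1), and 0 relations with Eno3 passed with arrays centred on their medians. By Spearman's rho, 3 relations between the regions passed (Eno3, Ldha and Pgk1), and 0 under either of these scalings or when the proximal arrays of rats 3 and 6 were left out. The Pgk1 relation is in the counts by both measures, but its rats fell into separate sets, so its pass is not read as a result. The correlation of Pfkp with Eno3 in distal colon was 0.37 with the deposited scaling (adjusted p = 0.514), against an adjusted p of 0.0203 to 0.688 over its alternatives. The causes were not tested. Signals near the floor, as for Eno2 and Hkdc1, are compressed by the pseudocount.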
